A study of Mus musculus with 42 samples.

Results

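KU0063794 is a small molecule described as an inhibitor of mTOR, and the kidney data compared mice that ate it with mice on the same diet without it. The comparison covered 10 of the 42 libraries of the series, 4 from KU0063794 and 6 from control, chosen by the compound and tissue in their labels, and it is described across all expressed genes. All animals were male UM-HET3 mice, a stock bred by crossing several inbred strains, so that littermates differ genetically and no group is an inbred line. The control diet was Purina 5LG6 chow. The treated group received the same chow with KU0063794 at 10 ppm. Feeding began at 3 months of age and went on for 1 month, and tissue was taken at 4 months. Kidney was also sequenced after 5 other compounds, with 4 libraries each, under the same schedule. Their diets held 75 ppm of enzastaurin, 50 ppm of GDC-0941, 30 ppm of AS-703026, 20 ppm of AZD8055 or 6.3 ppm of ascorbyl-palmitate. Whether an animal gave more than 1 library is not stated in the labels, so the p-values measure the spread between these libraries. The whole organ was used, and in such bulk RNA fewer cells of a type and less RNA per cell cannot be told apart.

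mTOR is a protein kinase that joins signals from growth factors, amino acids and energy supply. It works in complex 1, built around Raptor, which favours translation and ribosome production and holds back autophagy and lysosome formation, and in complex 2, built around Rictor, which phosphorylates AKT and SGK kinases. Inhibitors that block the kinase site act on both complexes. In kidney the pathway is known for its part in tubule growth, podocyte upkeep and sodium transport through SGK1. Much of its control is exerted on proteins by phosphorylation, which RNA counts do not measure.

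RNA 3′ ends were counted by CEL-seq. Total counts per library ran from 863605 to 2559118 in control and from 894034 to 5691067 with KU0063794, and 14491 to 20087 and 14813 to 17190 genes had a count. Counts in gene models that resemble satellite repeats made up 0.0555% to 12.5% of the control libraries. Their share was 8.02% in KU0063794 replicate 1 (95% Wilson interval, 7.96% to 8.07%, counting error only) and between 0.0575% and 0.1998% in replicates 2 to 4. Replicate 1 was also the shallowest of the 4. The tissue label was borne out by its markers. The 20 proximal tubule markers summed to between 22886 and 24739 CPM, which are counts adjusted for the size of each library, in control and between 24346 and 29403 CPM with KU0063794.

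Of 11719 genes tested, 5 fell with KU0063794 and 0 rose past an adjusted p of 0.05 in edgeR's quasi-likelihood test, which is 0.0427% and 0.0% of the genes. Of the 4 that have a name, 3 act on RNA in the nucleus. Cpsf6 encodes a subunit of cleavage factor I, which helps to choose where a messenger RNA is cut and polyadenylated. Khdc4 encodes a KH-domain RNA-binding protein of the splicing machinery, and Ice2 a subunit of the little elongation complex, which is needed to transcribe small nuclear RNA genes. The fourth, Stk35, encodes a serine/threonine kinase found mainly in the nucleus. The fifth is the Ensembl gene ENSMUSG00000089788, for which the annotation used here gives no symbol and no position.

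Khdc4 (ENSMUSG00000028060, chr3:88685803-88712924 on GRCm38, plus strand) had a lowest, median and highest level of 47.7, 97.6 and 118 CPM in control and levels of 35.1, 34.2, 42.8 and 35.4 CPM in KU0063794 replicates 1 to 4. All treated libraries lay below all controls. The log2 change was −1.25 ± 0.23 (SE; adjusted p = 0.0266, edgeR). Ice2 (ENSMUSG00000032235, chr9:69397906-69433122 on GRCm38, plus strand) had control levels of 13.2, 19.0 and 26.04 CPM at the lowest, median and highest, and 5.66, 10.6, 10.0 and 8.32 CPM in the treated replicates. The groups did not overlap, and the log2 change was −1.13 ± 0.21 (SE; adjusted p = 0.0266, edgeR).

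Cpsf6 (ENSMUSG00000055531, chr10:117344673-117380015 on GRCm38, minus strand) stood at 58.3, 116 and 152 CPM in the lowest, median and highest control and at 58.9, 52.7, 58.2 and 53.0 CPM with KU0063794. The treated libraries were tightly grouped, and 1 control, replicate 2, lay among them. The log2 change was −0.99 ± 0.18 (SE; adjusted p = 0.0266, edgeR). Stk35 (ENSMUSG00000037885, chr2:129800517-129832287 on GRCm38, plus strand) had 16.5, 20.5 and 28.6 CPM at the lowest, median and highest of control and 5.66, 11.1, 13.7 and 9.53 CPM with KU0063794. Its groups did not overlap, and it fell by 1.05 ± 0.20 on the log2 scale (SE; adjusted p = 0.0304, edgeR).

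ENSMUSG00000089788 had a control range of 13.0 to 89.5 CPM with a median of 53.5 CPM, against 7.93, 13.4, 14.1 and 7.97 CPM in the treated libraries. Control replicate 2 was below 2 of the treated libraries. The log2 change was −2.26 ± 0.40 (SE; adjusted p = 0.0266, edgeR).

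**Figure D1:**
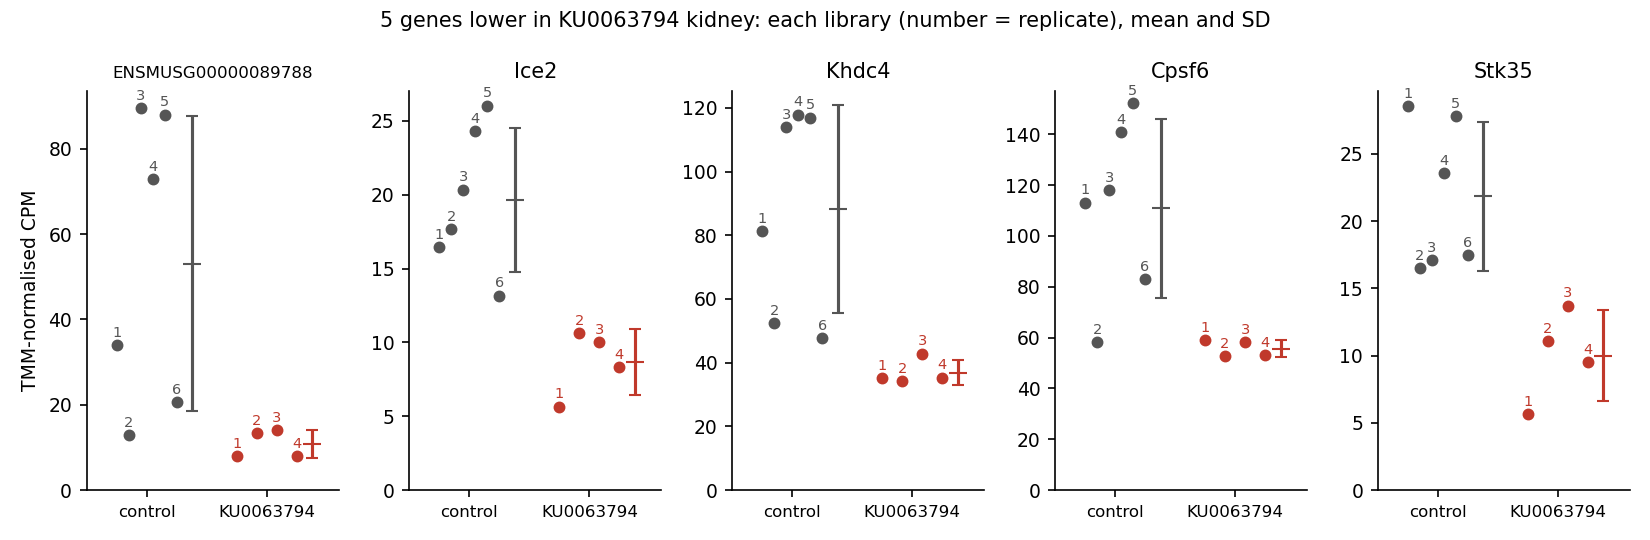
TMM-normalised CPM (y axes, from 0) of the 5 genes past the threshold in each of the 6 control and 4 KU0063794 libraries, numbered by replicate, with the group mean and SD beside the points. Ice2, Khdc4 and Stk35 show no overlap between the groups, while control replicate 2 reaches the treated range for Cpsf6 and ENSMUSG00000089788.

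The sequences before the starts of the 4 named genes are shown because these genes passed the threshold. It picked them against the same controls, so their common fall was set by that choice and is no sign of shared control. The sequences are the 250 bases before the RefSeq start on GRCm38.p6, read 5′ to 3′ on the gene's strand. The gene positions given above come from GENCODE. For Cpsf6 and Ice2 the RefSeq start lies inside that span. The Cpsf6 window is therefore wholly inside the GENCODE gene, and the Ice2 window crosses the GENCODE start, so only a part of it is upstream. Capitals mark matches on either strand to the CCAAT box (CCAAT), the GC box (GGGCGG) or the core of the cyclic AMP response element (TGACG). The palindrome in Ice2 counts as 2 matches to the last motif because both strands match.
Khdc4, chr3:88685537-88685786, plus strand: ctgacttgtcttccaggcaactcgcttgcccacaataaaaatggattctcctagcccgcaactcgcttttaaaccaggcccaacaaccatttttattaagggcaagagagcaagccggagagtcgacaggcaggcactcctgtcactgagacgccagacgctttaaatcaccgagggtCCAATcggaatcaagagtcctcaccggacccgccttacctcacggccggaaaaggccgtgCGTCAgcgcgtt
Ice2, chr9:69397748-69397997, plus strand: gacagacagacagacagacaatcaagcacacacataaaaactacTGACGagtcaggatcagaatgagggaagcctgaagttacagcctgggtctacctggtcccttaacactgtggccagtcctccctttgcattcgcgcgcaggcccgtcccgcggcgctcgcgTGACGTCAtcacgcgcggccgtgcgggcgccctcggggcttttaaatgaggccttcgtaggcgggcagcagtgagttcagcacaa
Cpsf6, chr10:117376974-117377223, minus strand: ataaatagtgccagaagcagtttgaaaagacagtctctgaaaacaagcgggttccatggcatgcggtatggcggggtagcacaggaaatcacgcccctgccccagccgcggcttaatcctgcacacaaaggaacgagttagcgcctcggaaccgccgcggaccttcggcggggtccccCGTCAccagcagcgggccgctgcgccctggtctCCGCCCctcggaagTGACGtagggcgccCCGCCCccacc
Stk35, chr2:129800267-129800516, plus strand: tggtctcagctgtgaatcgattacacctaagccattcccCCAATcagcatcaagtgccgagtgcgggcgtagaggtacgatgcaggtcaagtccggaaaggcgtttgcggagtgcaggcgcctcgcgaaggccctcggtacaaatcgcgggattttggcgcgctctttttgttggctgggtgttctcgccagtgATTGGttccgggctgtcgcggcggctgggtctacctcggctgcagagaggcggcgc

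TGACG was found in Khdc4, Ice2 and Cpsf6 (1, 3 and 2 matches) and in 17.8% of all 32851 promoters of the table. These promoters are not limited to the genes tested in kidney, and no share over tested genes was taken. CCAAT was found in Khdc4 (1 match) and Stk35 (2 matches) and in 33.8% of all promoters, and GGGCGG only in Cpsf6 of these 4 (2 matches) and in 32.7% of all. The E-box (CACGTG, in 6.02% of all promoters) had no match in the 4 windows. The same held for the NRF1 motif's core (GCGCATG, 3.24%), the ETS motif (CCGGAAG, 6.91%) and the TATA box (TATAAA, 12.4%). The 4 windows were 54.4% (Khdc4), 58.8% (Ice2), 60.8% (Stk35) and 64.0% (Cpsf6) G or C, against a median of 52.4% over all promoters. These matches describe the letters of the windows and no factor's binding was measured.

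Over all 11719 genes the median log2 change was −0.02. Without adjustment, 711 genes (6.07%) had a p under 0.05 and a lower level with KU0063794, and 432 (3.69%) a p under 0.05 and a higher level. All 4 treated libraries lay below all 6 controls for 110 genes (0.939%) and above them for 113 (0.964%). The count of genes past the threshold depended on the tool and on single libraries. DESeq2 gave 60 lower and 4 higher genes and limma voom with sample weights 236 and 106, and both included all 5 genes above. A fit of the 10 libraries alone gave 0, as did leaving out any 1 of the 4 treated libraries or control replicate 1, 3, 4 or 5. Leaving out control replicate 2 gave 65 lower and 8 higher genes, and leaving out control replicate 6 gave 46 and 6. The 5 genes also missed the threshold with the satellite-like share, or the earlier or later position in the deposited table, as a covariate (0 genes each). Control replicates 1 to 6 held positions 15, 16, 25, 26, 27 and 31 in that table. KU0063794 replicates 1 to 4 held positions 18, 35, 36 and 37. Position was thus largely tied to group, and the fit cannot fully tell them apart.

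**Figure D2:**
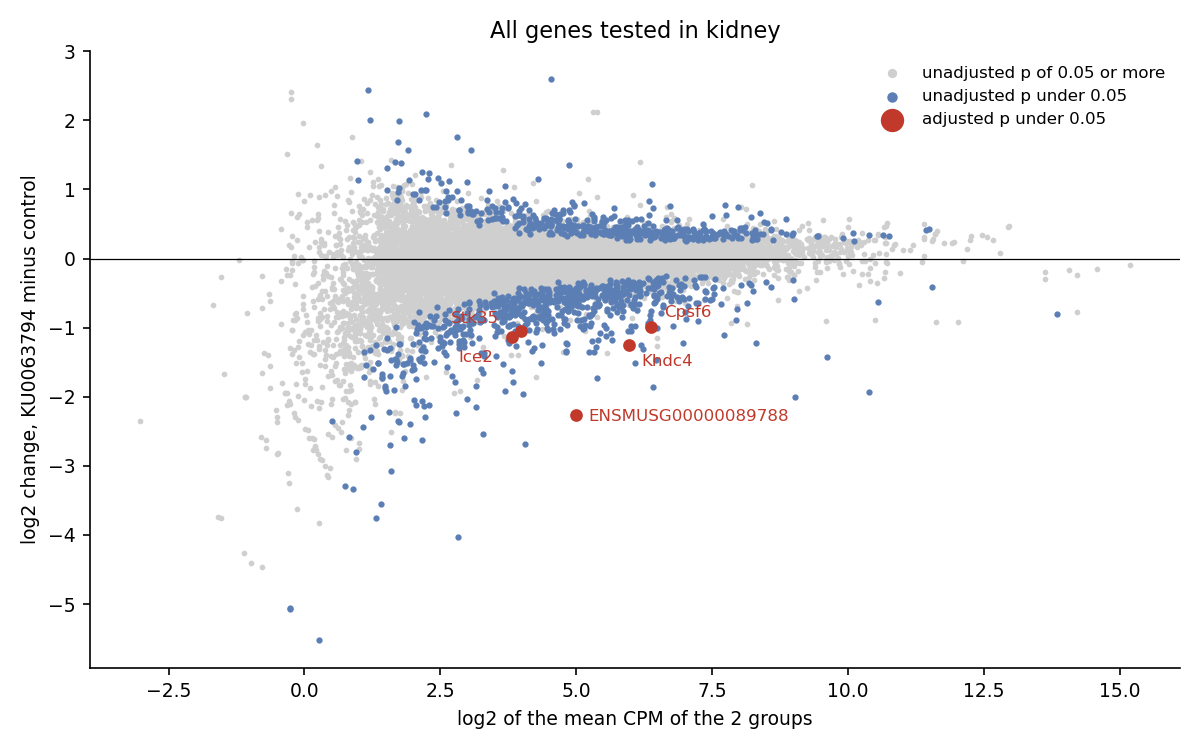
Log2 change between KU0063794 and control (y axis) against the log2 of the mean CPM of both groups (x axis) for each of the 11719 genes tested. Red points are the 5 genes with an adjusted p under 0.05, all below 0, and blue points are genes with an unadjusted p under 0.05, of which 711 lie below 0 and 432 above.

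Khdc4, Cpsf6 and Ice2 each belong to a different list. The lists were chosen with earlier results of these data known, so their counts describe the data and are not independent of these genes. In the list of SR proteins, heterogeneous nuclear ribonucleoproteins and other splicing genes, 57 were tested and 1, Khdc4, fell. By unadjusted p, 29 were lower and 0 higher, against 6.07% and 3.69% of all genes, and the list's median log2 change was −0.45 against −0.02 for all genes. Sfpq, which encodes a splicing factor of nuclear paraspeckles, had 72.5, 108 and 134 CPM at the lowest, median and highest of control and 64.5, 52.2, 63.9 and 56.3 CPM with KU0063794. The groups did not overlap, but its log2 change of −0.82 ± 0.17 did not pass (adjusted p = 0.073, edgeR). Luc7l2, a component linked to the U1 small nuclear ribonucleoprotein, differed by −0.96 ± 0.21 on the log2 scale without overlap, from a control median of 49.1 CPM to between 20.3 and 29.4 CPM (adjusted p = 0.0838, edgeR). Srsf6, an SR protein that binds exon enhancers, had 52.1, 58.7, 103 and 78.0 CPM with KU0063794 against a control range of 75.4 to 203 CPM, so the groups overlapped (log2 change −0.98 ± 0.22).

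In the list of messenger RNA 3′ end processing, 21 genes were tested and Cpsf6 fell. By unadjusted p, 6 were lower and 0 higher, against 6.07% and 3.69% of all genes. The median log2 change was −0.12. Cpsf7, which encodes another large subunit of cleavage factor I, had 29.4, 21.7, 28.1 and 29.5 CPM in the treated libraries and 31.2, 46.6 and 66.6 CPM at the lowest, median and highest of control. Its log2 change of −0.81 ± 0.20 came without overlap and did not pass (adjusted p = 0.129, edgeR). Log2 changes of −0.78 ± 0.27 for Cstf3, a cleavage stimulation factor subunit, and −1.40 ± 0.54 for Pabpn1, the nuclear poly(A)-binding protein, came with overlapping groups.

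The list of small nuclear RNA transcription, super elongation complex and Integrator genes held 30 tested genes. Ice2 fell, and 8 were lower and 1 higher by unadjusted p, against 6.07% and 3.69% of all genes. The median was −0.20. Ell, an elongation factor shared by the super and little elongation complexes, had 4.53, 4.16, 5.35 and 6.58 CPM with KU0063794 and 7.07 to 14.7 CPM in control. These groups were apart, with a log2 change of −1.10 ± 0.29 (adjusted p = 0.136, edgeR). Ccnt2, a cyclin of the elongation kinase P-TEFb, differed by −0.98 ± 0.29 and Ints8, an Integrator subunit, by −2.40 ± 0.83, both with overlap and adjusted p of 0.227 and 0.311 (edgeR).

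The list named nuclear long noncoding RNAs had the lowest median of the lists, −1.08 over 14 tested, with 0 past the threshold. By unadjusted p, 10 were lower and 0 higher, against 6.07% and 3.69% of all genes. It was drawn up with Gas5, Norad and host transcripts of the Snhg family as well. Where its RNAs lie in the cell was not measured. The highest log2 change in it was that of Snhg6, 0.36. Neat1, the RNA on which paraspeckles form, had 204, 889 and 1399 CPM at the lowest, median and highest of control and 164, 169, 278 and 222 CPM with KU0063794. The treated libraries were all near the lowest control, with overlap (log2 change −1.998 ± 0.48, adjusted p = 0.129, edgeR). Malat1, an RNA of nuclear speckles, ranged from 282 to 2101 CPM in control with a median of 1304 CPM and stood at 591, 317, 460.1 and 325 CPM with KU0063794 (log2 change −1.43 ± 0.41, adjusted p = 0.21, edgeR). The host transcripts Snhg14 and Snhg11 had log2 changes of −1.13 ± 0.29 and −1.72 ± 0.44, again with overlap.

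The controls themselves were spread widely in these lists. The median of the nuclear long noncoding RNAs, taken in each library relative to the control mean, was −0.88 in control replicate 2 and −0.81 in replicate 6. It lay between 0.23 and 0.68 in the other 4 controls and between −0.99 and −0.76 in the treated libraries. For the splicing genes the same score was −0.43 and −0.33 in control replicates 2 and 6, 0.10 to 0.29 in the other controls, and −0.50 to −0.23 with KU0063794. Scores of the 3′ end processing list ran from −0.20 to 0.17 in control and from −0.26 to 0.03 with KU0063794. Those of the small nuclear RNA transcription list ran from −0.18 to 0.28 and from −0.32 to 0.03. In both lists the groups overlapped. Control replicates 2 and 6 were the deepest controls, with totals of 1787638 and 2559118 counts, and their satellite-like shares were 12.5% and 0.0555%. The part of depth in these results was not tested. KU0063794 replicate 1, with a total of 894034 counts, had scores of −0.94 for the nuclear long noncoding RNAs and −0.50 for the splicing genes.

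**Figure D3:**
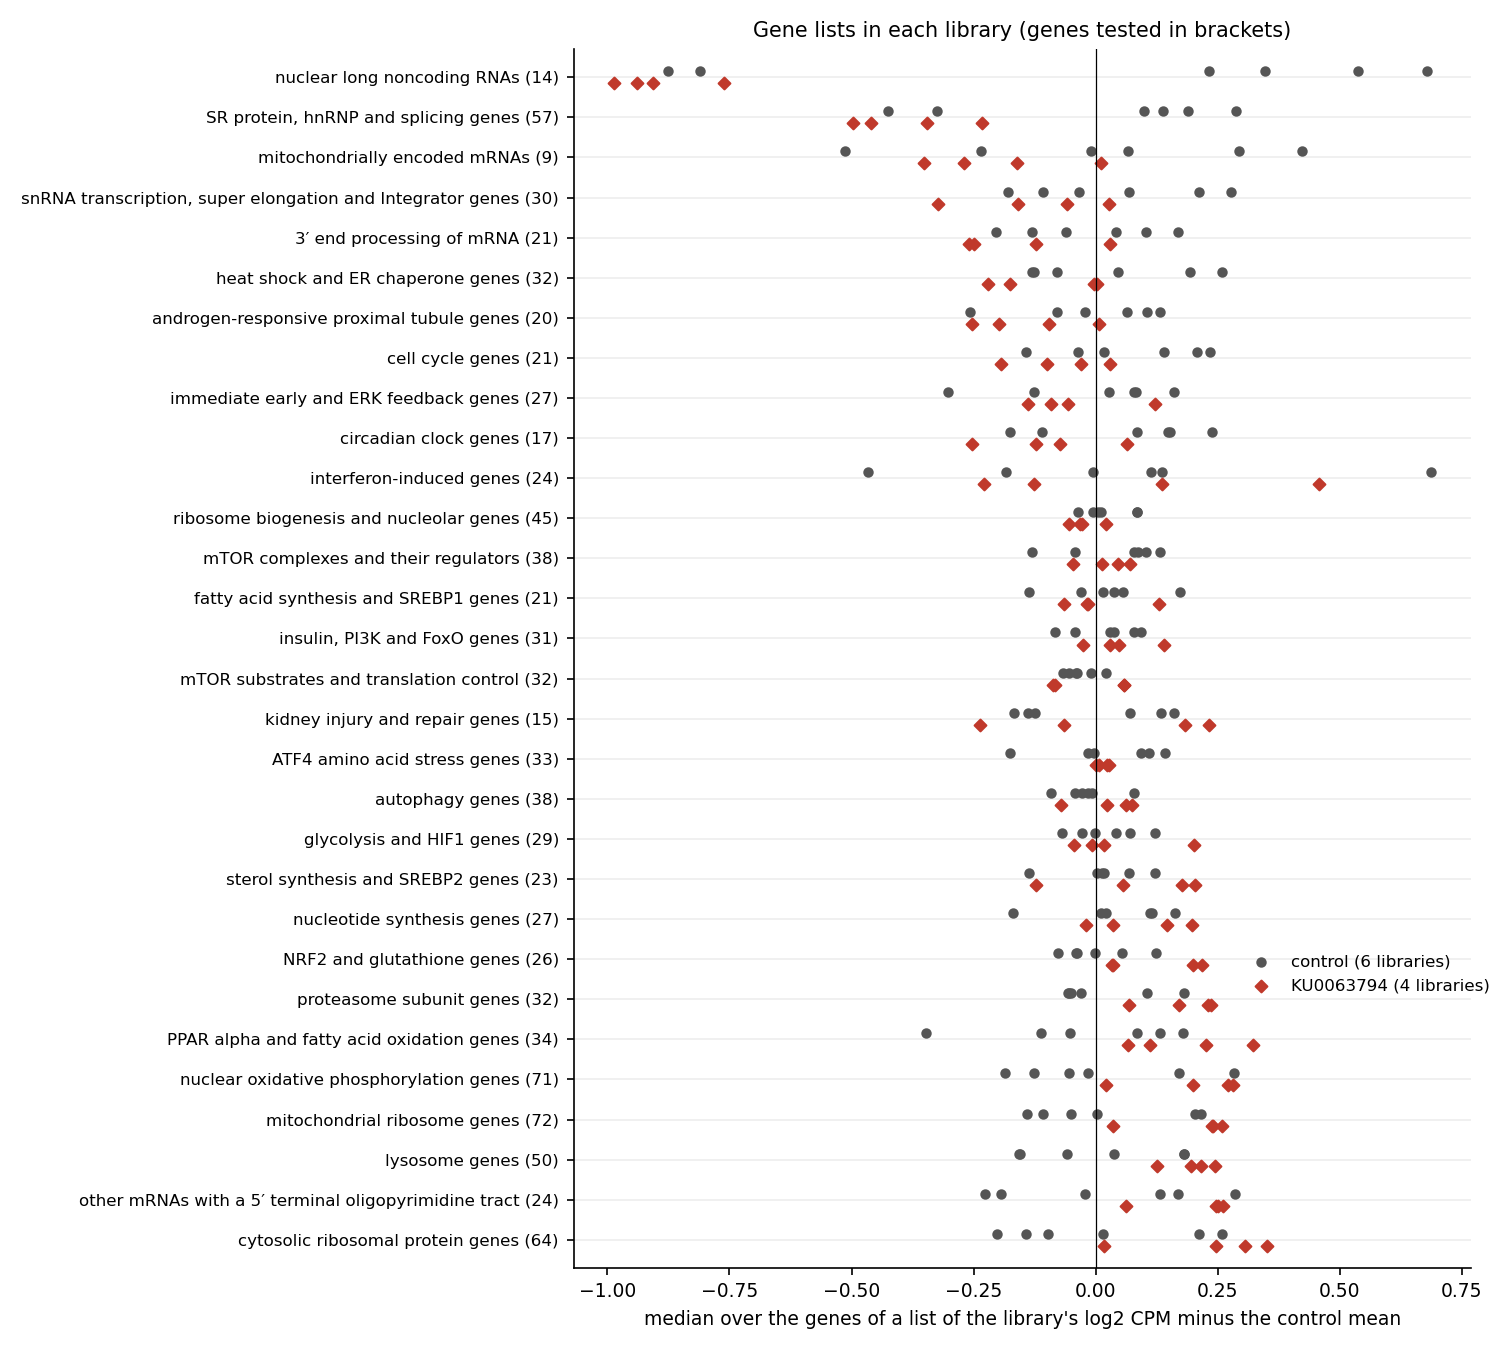
Gene lists of pathways (y axis, with the number of genes tested), sorted by their median log2 change, and for each library the median over the list's genes of its log2 CPM minus the control mean (x axis). Grey circles are the 6 controls and red diamonds the 4 KU0063794 libraries. In the nuclear long noncoding RNA and splicing lists, 2 controls lie with the treated libraries and 4 apart from them.

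Other genes at the lower end did not pass. Fubp1, which encodes a single-stranded DNA-binding regulator of transcription, had 45.3, 47.1, 42.5 and 47.0 CPM with KU0063794 and 54.7 to 139 CPM in control, without overlap (log2 change −0.97 ± 0.21, adjusted p = 0.0838, edgeR). Wsb1, a substrate receptor of a ubiquitin ligase, had a control median of 99.2 CPM and treated levels of 36.2, 23.6, 44.5 and 36.4 CPM, with 1 control at 38.3 CPM (log2 change −1.51 ± 0.33). Zcchc7, a part of a nuclear RNA surveillance complex, differed by −1.24 ± 0.28. The mitochondrial 12S ribosomal RNA mt-Rnr1 had 776, 340.4, 619.7 and 476 CPM with KU0063794 and ranged from 634 to 4803 CPM in control (log2 change −1.94 ± 0.42). Among transcripts of unknown role, Gm17491, a sense intronic RNA, had a log2 change of −1.62 ± 0.35, Gm20045, a long intergenic RNA, of −2.23 ± 0.49, and 4933439C10Rik of −1.78 ± 0.40. Their counts are uncertain where they overlap another gene, since the strand setting of the counting is not given in the sources used here.

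At the higher end no gene passed in edgeR's test. The smallest p belonged to Nagk, which encodes the kinase that recycles N-acetylglucosamine. It stood at 199, 213, 208 and 259 CPM with KU0063794 and at 109, 137 and 183 CPM in the lowest, median and highest control. All treated libraries lay above all controls (log2 difference 0.62 ± 0.15, adjusted p = 0.125, edgeR).

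Cirbp, a cold-inducible RNA-binding protein, had 38.5, 45.7, 32.8 and 38.1 CPM with KU0063794 and 17.9 to 29.7 CPM in control. The groups were apart, with a log2 difference of 0.81 ± 0.20 (adjusted p = 0.129, edgeR). Kynu, which encodes kynureninase of tryptophan breakdown, had 6.79, 12.9, 16.1 and 14.0 CPM against a control range of 2.21 to 7.33 CPM, with overlap at treated replicate 1 (log2 difference 1.57 ± 0.39). Eif6, which keeps free large ribosomal subunits from joining small ones, had 84.9, 115, 113 and 81.8 CPM against a control range of 50.4 to 83.7 CPM (log2 difference 0.63 ± 0.17).

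Gmpr, a GMP reductase of purine salvage, had 105, 107, 122 and 88.7 CPM with KU0063794 and 42.7 to 76.9 CPM in control. It did not overlap (log2 difference 0.73 ± 0.21, adjusted p = 0.223, edgeR). Tsen34, a subunit of the transfer RNA splicing endonuclease, had a control range of only 41.2 to 44.0 CPM and treated levels of 46.4, 55.9, 61.2 and 57.0 CPM (log2 difference 0.40 ± 0.12). Golm1, a Golgi membrane protein, had 7.93, 9.70, 6.36 and 8.32 CPM against 3.29 to 4.88 CPM, also apart. Fam174a, Acbd6 (an acyl-CoA-binding protein), Zfp574 and Alkbh7 (a mitochondrial protein of the AlkB family) were likewise higher in all treated than in all control libraries, with log2 differences of 0.57, 0.57, 0.82 and 0.56.

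Tusc1, Ifngr2 (the second chain of the interferon gamma receptor) and Nudt16l1 had log2 differences of 0.56, 0.59 and 0.54 with overlapping groups. Gm11100, a processed transcript, had 40.8, 43.4, 54.2 and 19.9 CPM with KU0063794 and 0 to 22.8 CPM in control (log2 difference 2.60 ± 0.77, adjusted p = 0.235, edgeR).

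Transcripts of the pathway itself were measured for 38 genes of the mTOR complexes and their regulators, and 0 passed the threshold. By unadjusted p, 2 were higher and 2 lower, against 3.69% and 6.07% of all genes. The median log2 change was −0.04. Mtor had 59.3, 78.4 and 116 CPM at the lowest, median and highest of control and 70.2, 95.6, 69.3 and 63.2 CPM with KU0063794. The treated levels lay within the control range (log2 change −0.14 ± 0.19).

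Of complex 1, Rptor, which encodes Raptor, had 10.2, 12.0, 11.04 and 8.66 CPM against a control range of 7.33 to 13.3 CPM (log2 change 0.06 ± 0.23). Akt1s1, which encodes the inhibitory subunit PRAS40, had a log2 change of 0.14 ± 0.16. Deptor, an inhibitor bound to both complexes, had 103, 104, 113 and 130.0 CPM against 91.3 to 131 CPM in control. Mlst8, a subunit of both complexes, had 1.13 CPM in treated replicate 1 and 6.02 to 6.58 CPM in the others, against 2.95 to 10.5 CPM in control.

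Of complex 2, Rictor had 20.4, 12.9, 14.1 and 13.2 CPM with KU0063794 and 14.7, 27.0 and 34.6 CPM at the lowest, median and highest of control. Treated replicate 1 and the lowest control made the groups overlap, and the log2 change of −0.81 ± 0.28 did not pass (adjusted p = 0.309, edgeR). Mapkap1, which encodes the complex 2 subunit SIN1, had 73.6, 109.9, 91.3 and 106 CPM against a control range of 57.1 to 91.1 CPM (log2 difference 0.38 ± 0.15, adjusted p = 0.389, edgeR). Its partners Prr5 and Prr5l had log2 differences of −0.41 ± 0.23 and 0.76 ± 0.39.

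Upstream, Tsc1 and Tsc2, whose products form the inhibitor of the small GTPase Rheb, had log2 differences of −0.15 ± 0.18 and 0.31 ± 0.22, and Rheb itself one of 0.14 ± 0.12. Ddit4 (REDD1), an inhibitor induced by stress, stood at 2.26 to 8.03 CPM with KU0063794 and 2.44 to 10.996 CPM in control. Of the amino acid arm at the lysosome, Slc38a9, an arginine sensor, had 14.7, 10.6, 15.1 and 15.2 CPM against 15.1 to 26.04 CPM in control (log2 change −0.50 ± 0.18, adjusted p = 0.347, edgeR). Lamtor2, a subunit of the Ragulator scaffold, had 40.8, 47.6, 37.8 and 47.3 CPM against 22.8 to 39.9 CPM (log2 difference 0.41 ± 0.15, adjusted p = 0.359, edgeR). Lamtor1 and Lamtor4 of the same scaffold had log2 differences of 0.30 ± 0.20 and 0.25 ± 0.17. The sensors Castor1 (arginine) and Sesn2 (leucine) had differences of 0.43 ± 0.37 and 0.21 ± 0.32, and Flcn and Fnip2, which act on the Rag GTPases, of −0.25 ± 0.23 and 0.35 ± 0.21.

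Lamtor3, a further Ragulator subunit, was split into separate levels in both groups. It stood at 37.3, 28.5, 42.7 and 26.6 CPM in control replicates 1, 3, 4 and 5 and at 1.18 and 3.10 CPM in replicates 2 and 6. With KU0063794 it stood at 39.6, 38.8 and 46.5 CPM in replicates 1 to 3 and at 1.73 CPM in replicate 4. Its log2 difference of 0.46 ± 0.99 therefore had a wide error.

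**Figure D4:**
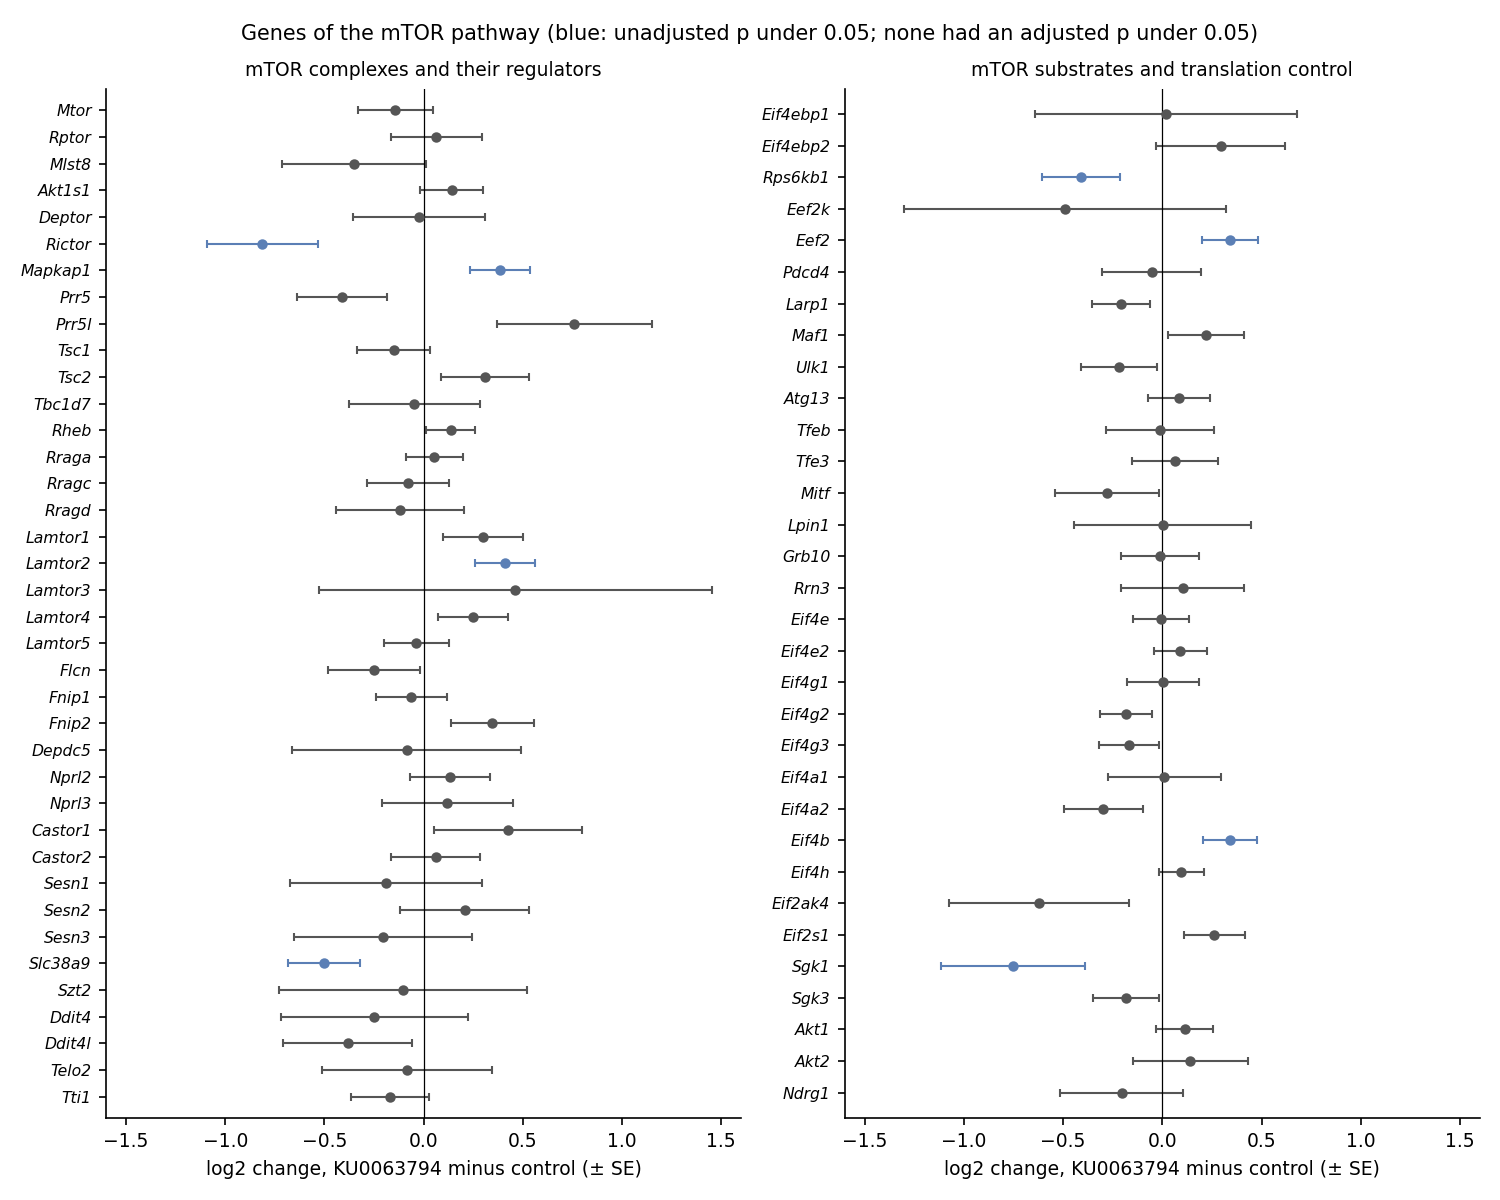
Log2 change between KU0063794 and control with its SE (x axis) for the 38 tested genes of the mTOR complexes and their regulators (left) and the 32 tested genes of mTOR substrates and translation control (right). Blue marks the 4 genes on each side with an unadjusted p under 0.05, and none of the 70 genes had an adjusted p under 0.05.

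Among 32 genes of mTOR substrates and translation control 0 passed, and the median log2 change was −0.00. By unadjusted p, 2 were higher and 2 lower, against 3.69% and 6.07% of all genes. Of the direct substrates, Eif4ebp1 and Eif4ebp2 encode repressors of cap-dependent translation. They stood at 6.00 to 12.0 CPM and 97.0 to 214 CPM with KU0063794 and at 5.49 to 11.2 CPM and 83.0 to 194 CPM in control. Rps6kb1, which encodes S6 kinase 1, had 49.8, 37.0, 38.1 and 42.3 CPM against a control range of 40.7 to 81.0 CPM (log2 change −0.41 ± 0.19). Larp1, the binder of oligopyrimidine messenger RNAs, had a log2 change of −0.21 ± 0.15, and Ulk1, the kinase that starts autophagy, one of −0.22 ± 0.19.

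Sgk1, the kinase downstream of complex 2 that raises sodium uptake in the distal nephron, had 36.2, 26.8, 17.1 and 40.7 CPM with KU0063794 and 26.9, 52.0 and 70.1 CPM at the lowest, median and highest of control. The groups overlapped, with a log2 change of −0.75 ± 0.36 (adjusted p = 0.499, edgeR). Ndrg1, whose product SGK1 phosphorylates, stood at 2148, 1766, 1683 and 1799.7 CPM against 1828 to 2393 CPM in control (log2 change −0.20 ± 0.31). Of the translation factors, Eif4b had 92.8, 88.7, 90.3 and 88.0 CPM, close to the highest control of 92.3 CPM and above the control median of 67.2 CPM (log2 difference 0.34 ± 0.14, adjusted p = 0.406, edgeR). Eef2, the elongation factor that moves the ribosome along, had 1627, 1859, 1666 and 1958 CPM against 1198 to 1692 CPM (log2 difference 0.34 ± 0.14, adjusted p = 0.433, edgeR). Eif4a2, Eif2s1 and Maf1 had log2 differences of −0.30 ± 0.20, 0.26 ± 0.15 and 0.22 ± 0.19.

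Messenger RNAs with a tract of pyrimidines at their 5′ end are those whose translation depends most on complex 1. Of all genes, 3.69% were higher and 6.07% lower by unadjusted p. In the 64 tested cytosolic ribosomal protein genes 0 passed, 12 were higher and 3 lower by unadjusted p. Their median log2 change was 0.26. In 24 other genes known for such a tract 0 passed, 5 were higher and 0 lower, and the median was 0.21. Rps9 had 281, 309, 294 and 339 CPM with KU0063794 and 164, 206 and 313 CPM at the lowest, median and highest of control, with overlap (log2 difference 0.44 ± 0.15, adjusted p = 0.314, edgeR). Rps4x of the same list differed by 0.64 ± 0.20. Eif3f, a subunit of initiation factor 3, had 65.7, 73.0, 80.6 and 67.9 CPM against 38.3 to 73.6 CPM (log2 difference 0.48 ± 0.15, adjusted p = 0.271, edgeR). Rack1, a scaffold on the small ribosomal subunit, differed by 0.37 ± 0.15. The library scores of the ribosomal protein list ran from −0.20 to 0.26 in control, with replicates 2 and 6 at 0.21 and 0.26. With KU0063794 they were 0.02, 0.31, 0.35 and 0.25. In the 24 other genes the scores ran from −0.23 to 0.29 in control and from 0.06 to 0.26 with KU0063794.

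Starts of 5 of these genes are shown to let the tract be seen. Each line gives the 10 bases before and the 20 bases from the RefSeq start on GRCm38.p6, 5′ to 3′ on the gene's strand. Capitals mark the longest run of C and T that begins with C within 3 bases of the start and has a length of at least 5.
Eif3f, chr7:108934405-108934434, plus strand: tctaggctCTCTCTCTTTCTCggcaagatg
Rpl13a, chr7:45128726-45128755, minus strand: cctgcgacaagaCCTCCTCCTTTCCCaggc
Rps10, chr17:27635225-27635254, minus strand: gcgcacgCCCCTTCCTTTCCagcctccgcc
Rack1, chr11:48800350-48800379, plus strand: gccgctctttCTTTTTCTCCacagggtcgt
Rps9, chr7:3704031-3704060, plus strand: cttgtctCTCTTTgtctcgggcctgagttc

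A tract by this rule was found at the start of 28 of the 62 list genes with a RefSeq start in the table (45.2%) and of 12.5% of the 8979 tested genes with one. The median log2 difference was 0.29 in the 28 list genes with a tract and 0.26 in the 34 without, while all tested genes with a tract had a median of −0.01. A missing tract says only that the annotated start lacks these letters.

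Some ribosomal protein genes differed the other way. Rps18 had 4.53, 2.31, 6.36 and 4.33 CPM with KU0063794 and 7.33, 31.0 and 51.6 CPM at the lowest, median and highest of control. The groups did not overlap, and the log2 change of −2.68 ± 0.89 did not pass (adjusted p = 0.29, edgeR). Rpl10 had a log2 change of −1.43 ± 0.50 from a control median of 6.13 CPM. Ribosomal protein genes have many near-identical copies in the genome, so the counts assigned to any 1 of them are uncertain.

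Genes of ribosome production had a median log2 change of −0.04 over 45 tested, with 0 past the threshold. By unadjusted p, 1 was higher and 2 lower, against 3.69% and 6.07% of all genes. Polr1b, a subunit of RNA polymerase I, had 6.79, 3.70, 5.35 and 4.68 CPM against 5.16 to 14.1 CPM in control (log2 change −1.09 ± 0.36, adjusted p = 0.29, edgeR). Utp20 and Rcl1, which take part in small subunit processing, had log2 differences of −0.41 ± 0.20 and 0.66 ± 0.29.

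Autophagy genes had a median of 0.02 over 38 tested, with 0 past the threshold. By unadjusted p, 1 was higher (Map1lc3b) and 0 lower, against 3.69% and 6.07% of all genes. Map1lc3b, which encodes the LC3B protein of autophagosome membranes, had 686, 779, 828 and 803 CPM with KU0063794 against 440.4 to 802 CPM in control (log2 difference 0.33 ± 0.16, adjusted p = 0.489, edgeR). Its relative Gabarap differed by 0.27 ± 0.14. Of 50 lysosome genes 0 passed, and the median was 0.21. Among them 3 were higher and 0 lower by unadjusted p, against 3.69% and 6.07% of all genes. The library scores of this list were 0.18 in both control replicates 2 and 6, −0.16 to 0.04 in the other controls and 0.13 to 0.24 with KU0063794. Naglu, an enzyme of heparan sulfate breakdown, had 30.6, 26.3, 14.1 and 14.0 CPM against 8.10 to 15.4 CPM, so that 2 treated libraries were within the control range (log2 difference 0.78 ± 0.27, adjusted p = 0.311, edgeR). Ppt1, a palmitoyl thioesterase, and Ctsl, a cathepsin, differed by 0.40 ± 0.15 and 0.43 ± 0.20.

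In the list of insulin, PI3K and FoxO genes 0 of 31 passed. By unadjusted p, 1 was higher (Igfbp1) and 0 lower, against 3.69% and 6.07% of all genes. Igfbp1 encodes a binding protein for insulin-like growth factors and is a known FoxO target. It had 5.66, 6.47, 3.68 and 5.55 CPM with KU0063794 and 0 to 3.26 CPM in control with a median of 1.13 CPM. The groups were apart at these low levels, with a log2 difference of 2.00 ± 0.56 (adjusted p = 0.183, edgeR). Foxo3 had a log2 change of −0.34 ± 0.21, and the median of the list was −0.02.

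Metabolic lists that lie downstream of complex 1 had medians near that of all genes. Sterol synthesis (23 genes) had a median of 0.07, fatty acid synthesis (21 genes) of −0.04 and the ATF4 amino acid stress genes (33 genes) of 0.02. Nucleotide synthesis (27 genes) had a median of 0.08. By unadjusted p, 6.07% of all genes were lower and 3.69% higher. In these 4 lists 0 genes passed, and 2 had an unadjusted p under 0.05. These were Rrm2b, a subunit of ribonucleotide reductase, with 12.5, 12.0, 11.7 and 10.6 CPM against 11.8 to 20.9 CPM in control (log2 change −0.57 ± 0.17, adjusted p = 0.235, edgeR), and Slc38a2, a carrier of neutral amino acids (−0.50 ± 0.23).

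Atf4 itself had a log2 change of −0.33 ± 0.19, and Paics of purine synthesis a difference of 0.25 ± 0.13. Srebf2, which encodes a regulator of sterol synthesis, differed by 0.24 ± 0.14, and Elovl1, an elongase of long fatty acids, by 0.36 ± 0.18 with all treated above all control libraries.

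Lists of nuclear genes for mitochondrial proteins had medians above that of all genes and 0 genes past the threshold. Of 71 oxidative phosphorylation genes 66 had a change above 0, against 47.04% of all genes, with a median of 0.18, and 6 were higher and 1 lower by unadjusted p. Of 72 mitochondrial ribosome genes 62 were above 0, with a median of 0.19, and 9 were higher and 0 lower. The shares of all genes by unadjusted p were 3.69% higher and 6.07% lower. Control replicates 2 and 6 lay with the treated libraries here too. Their scores were 0.17 and 0.28 for oxidative phosphorylation and 0.20 and 0.22 for the mitochondrial ribosome. The other controls lay between −0.19 and −0.02 and between −0.14 and 0.00, and the treated libraries between 0.02 and 0.28 and between 0.04 and 0.26. Against the other 5 compounds the medians of both lists were −0.01 and 0.01. Ndufs8, a complex I subunit, had 88.3, 94.7, 108 and 105 CPM against 57.8 to 102 CPM in control (log2 difference 0.47 ± 0.15, adjusted p = 0.262, edgeR), and Ndufb11 of the same complex differed by 0.35 ± 0.13. Cox7c, a subunit of cytochrome c oxidase with near-identical copies in the genome, differed by −1.03 ± 0.34.

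Of the mitochondrial ribosome, Mrpl43 and Mrpl35 had log2 differences of 0.41 ± 0.14 and 0.34 ± 0.12. Of 9 messenger RNAs encoded in the mitochondrial genome 0 had a change above 0, against 47.04% of all genes. Their median was −0.23, with 0 past the threshold. The lowest p among them was that of mt-Nd5, at 3004, 2298, 2394 and 2534 CPM with KU0063794 and 2557 to 4607 CPM in control (log2 change −0.41 ± 0.20, adjusted p = 0.502, edgeR). Library scores of these 9 ran from −0.51 to 0.42 in control and from −0.35 to 0.01 with KU0063794, so the controls enclosed the treated libraries. The 34 genes of fatty acid oxidation had a median of 0.17. By unadjusted p, 0 were higher and 0 lower, against 3.69% and 6.07% of all genes. Echs1, an enzyme of the pathway, differed by 0.37 ± 0.21. The glycolysis and HIF1 list had a median of 0.06 over 29 genes. In it P4ha1, a prolyl hydroxylase of collagen, differed by −0.56 ± 0.19 without overlap, Tpi1 by 0.36 ± 0.17 and Vegfa by −0.43 ± 0.22.

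Proteasome subunit genes had a median of 0.16 over 32 tested, with 0 past the threshold. By unadjusted p, 7 were higher and 0 lower, against 3.69% and 6.07% of all genes. The list's library scores were 0.18 and 0.11 in control replicates 2 and 6 and −0.06 to −0.03 in the other controls. With KU0063794 they were 0.07 to 0.24. Psmc1, an ATPase subunit of the cap, had 109, 109, 123 and 115 CPM with KU0063794 and 75.1 to 99.0 CPM in control. The groups were apart, with a log2 difference of 0.38 ± 0.12 (adjusted p = 0.271, edgeR). Psma5 of the core ring differed by 0.43 ± 0.15.

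Heat shock and endoplasmic reticulum chaperone genes had a median of −0.11 over 32 tested, with 0 past the threshold. By unadjusted p, 0 were higher and 2 lower, against 3.69% and 6.07% of all genes. Hsph1, a large cytosolic chaperone of the heat shock response, had 149, 184, 225 and 186 CPM against 248 to 432 CPM in control, without overlap (log2 change −0.73 ± 0.22, adjusted p = 0.235, edgeR). Dnajb1, a co-chaperone of HSP70, differed by −0.54 ± 0.22. In the NRF2 and glutathione list (26 genes, median 0.13) Gsta3, a glutathione transferase, had 82.7, 79.9, 94.7 and 72.6 CPM against 39.4 to 68.3 CPM, apart (log2 difference 0.57 ± 0.19, adjusted p = 0.29, edgeR), and Gpx1, a glutathione peroxidase, differed by 0.43 ± 0.19.

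Of 17 circadian clock genes 0 passed, and 2 were higher and 2 lower by unadjusted p, against 3.69% and 6.07% of all genes. Nfil3, a repressor of clock output genes, had 3.40, 5.08, 4.35 and 7.62 CPM with KU0063794 and 10.9, 23.1 and 29.5 CPM at the lowest, median and highest of control. The groups did not overlap (log2 change −1.91 ± 0.52, adjusted p = 0.161, edgeR). Nr1d1, which encodes the repressor REV-ERB alpha, had 47.6, 49.4, 34.8 and 27.4 CPM against 8.14 to 41.9 CPM (log2 difference 0.77 ± 0.32), Cry2 differed by 1.13 ± 0.53 and Clock by −0.58 ± 0.25. The labels give no time of day for the dissections.

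Genes of male proximal tubule that respond to androgen had a median of −0.10 over 20 tested, with 0 past the threshold. By unadjusted p, 1 was higher and 3 lower, against 3.69% and 6.07% of all genes. Slc22a28, an organic anion carrier, had 117, 109, 164 and 139.7 CPM with KU0063794 and 177, 275 and 428 CPM at the lowest, median and highest of control. The groups were apart (log2 change −1.11 ± 0.30, adjusted p = 0.161, edgeR). Its neighbour in the family Slc22a30 had 153, 188, 251 and 167 CPM against 207 to 711 CPM (log2 change −1.22 ± 0.30). Reads of these carriers may be shared between near-identical family members. Acsm3 differed by −1.66 ± 0.57 and Abcc4 by 0.64 ± 0.26.

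Lists of immediate early genes (27), interferon-induced genes (24), cell cycle genes (21) and injury and repair genes (15) had medians of −0.07, −0.06, −0.10 and 0.01, with 0 past the threshold in each. The only member of these with an unadjusted p under 0.05 was Adamts1, a secreted protease, with 13.6, 21.7, 18.4 and 21.3 CPM against 19.0 to 48.6 CPM in control (log2 change −0.88 ± 0.26, adjusted p = 0.232, edgeR). By unadjusted p, 6.07% of all genes were lower and 3.69% higher. Egr1 and Dusp6, which follow ERK signalling, differed by −1.19 ± 0.71 and −0.42 ± 0.25.

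Markers of 17 cell types included 0 genes past the threshold. Medians of the tubule lists were 0.10 for proximal tubule, 0.07 for thick ascending limb, 0.04 for distal convoluted and connecting tubule, 0.18 for principal cells and 0.16 for intercalated cells. Podocyte markers had a median of 0.08 and endothelial markers of 0.03. Slc34a1, the phosphate carrier of the proximal tubule, stood at 8032, 7773, 6736 and 5948 CPM with KU0063794 and 5198 to 6971 CPM in control (log2 difference 0.26 ± 0.25). Slc12a3, the thiazide-sensitive carrier of the distal convoluted tubule, differed by −0.56 ± 0.33. Single markers below an unadjusted p of 0.05 included Cldn16 of the thick ascending limb (1.23 ± 0.45, from a control median of 2.73 CPM). Others were the channel Trpm7 of the distal convoluted and connecting tubule list (−0.47 ± 0.18) and Fdx1 of the adrenal cortex list (0.43 ± 0.14). Fdx1 was the only 1 of 10 adrenal cortex markers with enough counts to be tested, so it does not stand for that cell type.

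The lowest medians were those of juxtaglomerular and smooth muscle cells (−0.43 over 9 genes), adipocytes (−0.35 over 9) and fibroblasts (−0.23 over 7). In the first of these lists the log2 differences ran from −0.72 for the smooth muscle marker Acta2 to 0.09 for the juxtaglomerular marker Ren1. The summed level of the adipocyte markers was 1401 to 2405 CPM in control and 862 to 1973 CPM with KU0063794, and that of the fibroblast markers 188 to 384 and 160.3 to 298 CPM. Both overlapped widely. Against the other 5 compounds, the adipocyte markers had a median log2 difference of −1.68. That value came from AZD8055 replicate 4, a library rich in fat transcripts, and without it the median was −0.34. The next lowest cell type medians in this comparison were −1.02 for hepatocytes, −0.97 for thin limb and inner medulla and −0.74 for fibroblasts. Without that library they were −0.70, −0.68 and −0.46. The highest was that of the distal convoluted and connecting tubule, at 0.36 with that library and 0.30 without. Macrophage markers summed to 228 to 814 CPM in control and 393 to 689.8 CPM with KU0063794. Of 10 neutrophil markers 0 had enough counts to be tested.

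KU0063794 was also compared with the mean of the other 5 compounds in kidney. The controls are no part of this difference but share the fit's estimate of the spread and its filter. Of 11719 genes 0 passed (0.0%), and 519 (4.43%) had an unadjusted p under 0.05. DESeq2 and limma voom also gave 0. Of the 5 genes that fell against control, Ice2 and Stk35 had the lowest p here, with log2 differences of −0.45 ± 0.18 (unadjusted p = 0.0166) and −0.42 ± 0.17 (unadjusted p = 0.0207), and both had an adjusted p of 0.983 (edgeR). Khdc4 differed by −0.16 ± 0.19, Cpsf6 by −0.11 ± 0.16 and ENSMUSG00000089788 by −0.40 ± 0.35. The splicing genes had a median of 0.01 and the nuclear long noncoding RNAs of −0.24 in this comparison. Medians of the 3′ end processing and small nuclear RNA transcription lists were −0.01 and −0.02. Rps18, described above, differed by −2.87 ± 0.81 (adjusted p = 0.983, edgeR). A p that misses the threshold does not show that the compounds act alike.

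The 5 genes are set side by side under each compound below, all against the same 6 controls, so the values are not independent of each other and the doses differ. AZD8055, which is also an inhibitor of mTOR, was given at 20 ppm. Under AZD8055 the log2 change was −1.20 ± 0.23 for Khdc4, −0.86 ± 0.18 for Cpsf6, −0.71 ± 0.20 for Ice2 and −0.59 ± 0.20 for Stk35. Under GDC-0941, an inhibitor of PI3 kinase, it was −1.15 ± 0.23, −0.93 ± 0.18, −0.49 ± 0.20 and −0.52 ± 0.19 for the same genes. Under AS-703026, an inhibitor of MEK, it was −0.94 ± 0.23, −0.91 ± 0.18, −0.53 ± 0.20 and −0.90 ± 0.20.

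Under ascorbyl-palmitate, a fat-soluble form of vitamin C, the changes of Khdc4, Cpsf6, Ice2 and Stk35 were −1.15 ± 0.22, −0.95 ± 0.18, −0.81 ± 0.20 and −0.48 ± 0.19. Under enzastaurin, an inhibitor of protein kinase C beta, they were −0.99 ± 0.22, −0.76 ± 0.18, −0.87 ± 0.20 and −0.66 ± 0.19. ENSMUSG00000089788 lay between −1.74 and −2.01 under the 5 other compounds. All 5 genes were thus below the shared controls under each compound. Outside the 5, Rictor had log2 changes of −0.99 under AZD8055, −0.88 under GDC-0941, −0.46 under AS-703026, −1.13 under ascorbyl-palmitate and −0.82 under enzastaurin, beside −0.81 under KU0063794. Nagk had log2 differences of 0.14, 0.44, 0.38, 0.33 and 0.27 under the same compounds in that order, beside 0.62 under KU0063794.

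**Figure D5:**
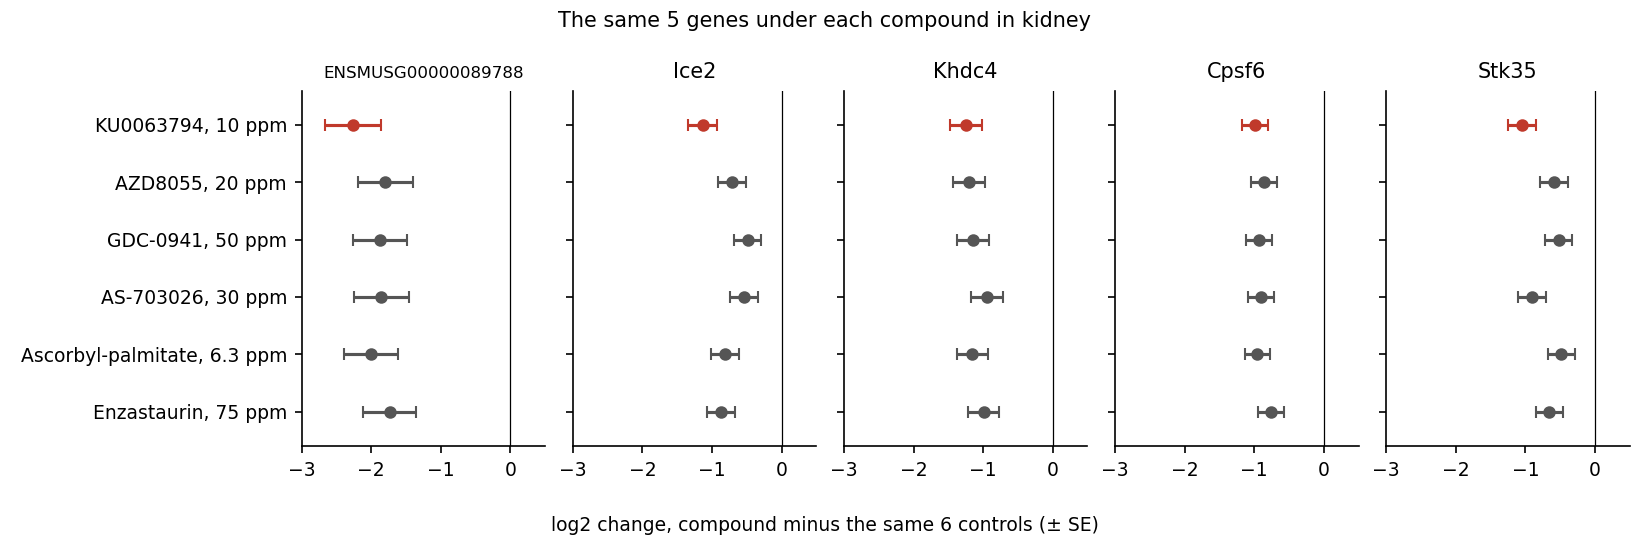
Log2 change with its SE (x axes) of the 5 genes that fell under KU0063794, for each of the 6 compounds at its dose in ppm (y axis), against the same 6 controls. KU0063794 is in red. All points lie below 0, and since the controls are shared the 6 values of a gene are not independent.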

How the data were processed

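The authors deposited counts of reads per Ensembl gene for 43629 genes and 42 CEL-seq libraries. Per the submitters' processing notes, bcl2fastq 1.8.4, Trimmomatic 0.32, STAR 2.5.2b, featureCounts 1.5 and the mm10 genome were used. For the annotation release, the strand setting and the handling of molecular identifiers, no source used here gives an answer. Symbols and coordinates came from GENCODE M21, which matched 42462 genes, and sequences from the RefSeq tables on GRCm38.p6.

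All 30 kidney libraries entered 1 fit of edgeR 4.0.16 (R 4.3.3; TMM scaling, filterByExpr, quasi-likelihood test, Benjamini-Hochberg over 11719 genes, threshold 0.05). The SE is the size of the log2 change divided by the root of the F statistic. Levels are TMM-normalised CPM. The 30 pathway and 17 cell type lists, 1332 symbols of which 1324 are in the table, are described by counts and medians without a set test. Members and lists were chosen with earlier results of these data known. The rule for named genes took the genes past the threshold, the 15 smallest p in each direction with a mean of at least 5 CPM, the mTOR lists, up to 4 genes of each other list and 3 markers of each cell type. The text names a subset, some genes are not reported here, and Rpl13a and Rps10 were added for their sequences.

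Alternatives were DESeq2 1.42.0, limma 3.58.1 voom with sample weights, RLE scaling, other filters, the 10 libraries alone, the replicate number as a block, the satellite-like share as a covariate or as a reason to leave libraries out, and each KU0063794 and control library and AZD8055 replicate 4 left out in turn. The position of a library in the deposited table as a covariate was added after the data were seen. The 13 satellite-like gene models were those in which 5% or more of the 24-base words also occur in Gm10800. No libraries were duplicates by a chi-square per gene (lowest mean 4.10, controls 1 and 4). The script was tested on simulated counts.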

Additional observations from a re-analysis of the deposited data

Results flagged for a closer look

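Among 262 groups of library values examined, 14 held 1 library set far from the rest of its group by Dixon's criterion, and chance alone marks about 1 group in 20. The largest gap relative to its group's range belonged to the satellite-like share, 8.02% in KU0063794 replicate 1 against 0.1998% in the next treated library.

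Among the treated libraries, Khdc4 had 1 library at 42.8 CPM with the next at 35.4 CPM, both below every control. Mlst8 had 1 at 1.13 CPM with the next at 6.02 CPM, and Rictor 1 at 20.4 CPM with the next at 14.1 CPM. Rheb had 1 at 130.2 CPM (next 154 CPM), Lamtor4 1 at 132 CPM (next 169.7 CPM), Slc38a9 1 at 10.6 CPM (next 14.7 CPM) and Trpm7 1 at 104 CPM (next 147 CPM).

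Among the controls, Gm20045 had 1 library at 2.33 CPM (next 10.98 CPM) and Gm11100 1 at 22.8 CPM (next 8.10 CPM). Eif4b had 1 at 92.3 CPM (next 72.5 CPM), Eif4a2 1 at 90.6 CPM (next 60.8 CPM), Cry2 1 at 3.29 CPM (next 1.18 CPM) and Dusp6 1 at 117 CPM (next 70.2 CPM).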

How the results depend on the processing

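Against control, 5 lower and 0 higher genes became 60 and 4 with DESeq2, 236 and 106 with limma voom and 46 and 3 without a filter. The count was 0 with the 10 libraries alone, with the satellite-like share or the table position as a covariate, and without the libraries at or above 5% satellite-like counts. Leaving out 1 library gave 0 to 65 lower and 0 to 8 higher genes, the highest without control replicate 2. RLE scaling and a minimum of 5 CPM gave 5 and 0. Against the other 5 compounds the count was 29 without a filter and 0 under all other alternatives.

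With a replicate block, 11 genes were lower and 0 higher, and 4 of the 5 genes were among them. The numbers share no stated animal, litter or day, and same-numbered libraries had correlations of deviations between −0.10 and 0.08 and no treated library correlated best with its own number, so they were not taken as pairs. Under the block the log2 change of Mtor was 0.025, the log2 change of Ddit4 0.29 and the log2 change of Eif4ebp1 −0.073, each opposite in sign to the value above.

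Of 2677 comparisons of 128 named genes with 21 alternatives, 17 changed sign, and 122 genes never did. The genes that turned were Mtor, Deptor, Rptor, Ddit4, Eif4ebp1 and Lamtor3. The log2 change of Deptor was 0.020 without a filter and −0.074 to 0.082 with 1 library left out. With 1 library left out the log2 change of Rptor was −0.0034 to 0.21, the log2 change of Ddit4 −0.53 to 0.014 and the log2 change of Eif4ebp1 −0.14 to 0.17. The last was −0.039 with voom and −0.0079 with the satellite-like covariate. The log2 change of Lamtor3 was −0.45 with voom. The cause was not tested. Of 552 list medians 508 moved by less than 1 SD of the treated libraries. Genes at a few CPM rest on few counts in the shallowest libraries.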
